A study of Mus musculus with 12 samples.

Results

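The fast-fibre contractile genes followed here in mouse quadriceps are 10 genes for proteins of the fast sarcomere: the fast myosin heavy chains Myh2, Myh1 and Myh4, the fast myosin light chains Myl1 and Mylpf, the fast troponins Tnni2, Tnnt3 and Tnnc2, and the Z-disc genes Actn3 and Myoz1. They were chosen by name, and all 10 were found among the 15344 genes measured by RNA-Seq. RNA came from 12 animals of 6 months on a C57BL/6 background, 4 in each of 3 groups. The group labelled WT held untreated wild-type mice. The group labelled KO held male mice that lack Gaa, the gene for lysosomal acid alpha-glucosidase, and that received PBS. The group labelled AAV held Gaa knockout males given AAV2/8-LSPhGAApA, a vector in which a liver-specific promoter drives human GAA, at 2e12 vg/kg into the tail vein at 2 months of age, 4 months before harvest. That promoter was chosen for liver, not for the muscle measured here. RNA was extracted from bulk tissue, and a bulk value cannot tell fewer fibres of a type from less RNA per fibre. The comparisons ask how the muscle of knockout animals differs from that of wild-type animals, and how the treated muscle differs from both.

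A fast fibre contracts by the sliding of thick myosin filaments along thin actin filaments. The heavy chain sets much of the speed: Myh2 encodes the IIa form of the most oxidative fast fibres, Myh1 the IIx form and Myh4 the IIb form of the fastest, most glycolytic fibres, which make up most of a mouse's superficial limb muscle. The light chains sit on the neck of the myosin head. The troponins C, I and T form the calcium switch on the thin filament, and alpha-actinin-3 (Actn3) and calsarcin-2 (Myoz1) belong to the Z-disc that anchors thin filaments. A slow counterpart exists for most of these proteins, and the balance between both sets is the usual molecular measure of fibre type.

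The 3 fast heavy chain genes lie side by side on chromosome 11 (GRCm38): Myh2 at chr11:67171027-67197517, plus strand, Myh1 at chr11:67200052-67224575, plus strand and Myh4 at chr11:67238029-67260446, plus strand. Their promoters are shown because the 3 genes did not move in the same direction. RefSeq windows on GRCm38.p6, which run from 250 bases before to 50 bases after each start, were found for 6 of the 10 members. Capitals in the first 3 sequences mark TATAAA on either strand and the longest run of bases that all 3 share, and in the fourth, of Myl1, TATAAA on either strand and CANNTG.
Myh2 (chr11:67170777-67171076, plus strand): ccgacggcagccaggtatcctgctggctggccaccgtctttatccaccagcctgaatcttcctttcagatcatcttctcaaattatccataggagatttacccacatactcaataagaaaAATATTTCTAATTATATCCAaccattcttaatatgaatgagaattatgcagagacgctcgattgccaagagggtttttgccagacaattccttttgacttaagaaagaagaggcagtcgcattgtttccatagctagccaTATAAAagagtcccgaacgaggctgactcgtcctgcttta
Myh1 (chr11:67199852-67200151, plus strand): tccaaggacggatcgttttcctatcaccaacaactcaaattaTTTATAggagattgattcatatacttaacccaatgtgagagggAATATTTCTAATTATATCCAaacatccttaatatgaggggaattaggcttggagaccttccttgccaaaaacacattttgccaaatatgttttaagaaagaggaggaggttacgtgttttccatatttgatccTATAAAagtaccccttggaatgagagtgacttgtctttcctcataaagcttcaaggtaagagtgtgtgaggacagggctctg
Myh4 (chr11:67237562-67237861, plus strand): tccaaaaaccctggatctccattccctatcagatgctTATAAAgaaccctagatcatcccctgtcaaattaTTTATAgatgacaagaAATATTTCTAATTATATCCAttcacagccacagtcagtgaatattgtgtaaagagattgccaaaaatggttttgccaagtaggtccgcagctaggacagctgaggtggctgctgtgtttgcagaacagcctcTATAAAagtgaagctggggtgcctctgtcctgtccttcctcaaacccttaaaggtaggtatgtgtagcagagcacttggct
Myl1 (chr1:66945007-66945306, minus strand): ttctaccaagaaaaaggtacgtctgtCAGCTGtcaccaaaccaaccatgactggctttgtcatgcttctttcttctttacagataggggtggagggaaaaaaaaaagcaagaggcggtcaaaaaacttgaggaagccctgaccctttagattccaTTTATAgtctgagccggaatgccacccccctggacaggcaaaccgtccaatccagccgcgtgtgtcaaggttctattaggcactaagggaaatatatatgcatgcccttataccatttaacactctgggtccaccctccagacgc

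The shared run, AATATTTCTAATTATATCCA, is 20 bases long and starts 130 bases before the RefSeq start of Myh2, 165 before that of Myh1 and 163 before that of Myh4. A TATAAA on the coding strand lay 32 bases before the start of Myh1 and 31 before that of Myh4, whereas in Myh2 it began at base 11 after the start. Across 32851 mouse promoter windows of this length, 13.6% held TATAAA on either strand. The MEF2 motif, bound by a family of muscle transcription factors, had a match in Myh1 and in Myh4, at 211 and 182 bases before the start, and none in Myh2 and Myl1, against 3.19% of all windows; in both genes it overlapped a reverse-strand TATAAA. The E-box CANNTG, read by MyoD and its relatives, occurred 3 times in Myh4, once in Myl1 and in neither Myh2 nor Myh1, against 72.3% of all windows. The CArG motif matched in Myh4 alone of the 4 promoters (1.63% of all windows), and MCAT (CATTCC) matched once each in Myh1, Myh4 and Myl1 (14.7%). MEF3 (TCAGGTT, 4.07%) and the core of the Maf site (TGCTGAC, 4.67%) had no match in the 4 windows. All motifs were searched on both strands. The RefSeq start coincided with the annotated gene start for Myh2 and lay 50 bases downstream of it for Myh1, 217 upstream for Myh4 and 348 downstream for Myl1. These matches are letters in a window and say nothing about binding.

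Values are normalized counts, that is, reads per gene divided by 1 size factor per library. The libraries held between 22122233 and 47379737 reads, a ratio of 2.14, and the lowest value of any member was 2112, so counting error was small for all 10. Gaa, the gene that defines the groups, went against the labels. It stood at 343, 14640.2, 324 and 460.3 in the libraries labelled WT 1 to 4, at 12151, 13075, 11936 and 12895 in KO 1 to 4, and at 947, 587, 499.6 and 9854 in AAV 1 to 4. Thus Gaa was high in all 4 libraries labelled KO, in WT 2 and in AAV 4, and low in the other 6. The position of the disrupted exon was not given in the sources used here, so whether a knockout transcript would still be counted is not known. The study also measured GAA enzyme activity and glycogen in quadriceps, which are not analysed here. Groups are therefore named by their labels throughout, and each direction below holds for the labels only. By the correlation of log2 values over genes, WT 3 was nearer to the libraries labelled KO (mean r = 0.948) than to the other libraries labelled WT (0.927), AAV 3 was nearer to KO (0.957) than to its own group (0.953), and AAV 4 was nearer to WT (0.945) than to its own group (0.943). All 14 sarcomere genes listed as shared by fast and slow fibres, such as Acta1, Ttn and Ckm, were measured. Their summed normalized count was 3053914 to 3852754 in the libraries labelled WT and 3332346 to 3833605 in those labelled KO. In those labelled AAV it was 2440521 to 3715591. Each library thus had the profile of skeletal muscle.

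Myh4 was by far the most abundant heavy chain in each library. It had normalized counts of 1248337, 1293965, 1224044 and 914021 in WT 1 to 4, 2213291, 1828687, 1722781 and 1978491 in KO 1 to 4 and 1070146, 1076729.6, 1645114 and 871578 in AAV 1 to 4. Every library labelled KO was above every other library, and AAV 3 was the nearest to them.

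Myh1 ran the other way. Its normalized counts were 89364, 212016, 100868 and 166045 in WT 1 to 4, 58194, 66937, 65915 and 28863 in KO 1 to 4 and 105923, 143016, 87389.6 and 113970.4 in AAV 1 to 4. All 4 libraries labelled KO were below all 8 others, with KO 4 the lowest.

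Myh2 was the scarcest of the 3 and the most variable. Its normalized counts were 7361, 25727, 49032 and 26799.6 in WT 1 to 4, 6101, 11604, 8786 and 2112 in KO 1 to 4 and 40833, 72499, 18621 and 14499 in AAV 1 to 4. The libraries labelled KO lay below those labelled AAV without overlap, but WT 1 fell inside the KO range.

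Myl1, the fast essential light chain gene (chr1:66924295-66945404, minus strand), separated the libraries labelled KO from the rest. Its normalized counts were 93717, 103913, 97026 and 72831 in WT 1 to 4, 179846, 205278, 156276 and 261408 in KO 1 to 4 and 36098, 59279.7, 96933 and 39482 in AAV 1 to 4. The lowest KO value exceeded the highest of the other 8 libraries, and 3 of the 4 AAV values were below every WT value.

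The Z-disc gene Actn3 lies at chr19:4861216-4877909, minus strand. Normalized counts for it were 249805, 257951, 367161 and 193018 in WT 1 to 4, 455373, 402188, 337002 and 485579 in KO 1 to 4 and 201681, 248762, 402119 and 155188 in AAV 1 to 4. It was high in the libraries labelled KO, but WT 3 and AAV 3 overlapped them.

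The remaining 5 members, which lie at chr7:127208890-127214298, plus strand (Mylpf), chr7:142441808-142444410, plus strand (Tnni2), chr7:142498836-142516009, plus strand (Tnnt3), chr2:164777161-164779967, minus strand (Tnnc2) and chr14:20649107-20656540, minus strand (Myoz1), overlapped between each pair of groups. Mylpf, the fast regulatory light chain, ranged over 397567 to 624520 in WT, 340070.4 to 437562 in KO and 229324 to 447787 in AAV libraries. Troponin I (Tnni2) ranged over 342182 to 456194, 403064 to 437771 and 318194 to 505887 in WT, KO and AAV. For troponin T (Tnnt3) the ranges were 697002 to 943598, 929011 to 1065385 and 671920.4 to 1215621. In all 5 the libraries labelled AAV spread more widely than those labelled KO, with AAV 3 the highest of its group. Troponin C (Tnnc2) covered 396875 to 540103, 446689 to 508391 and 455396 to 689709, and Myoz1 covered 73579.6 to 94668, 88758 to 97516 and 63082 to 103532.

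**Figure D1:**
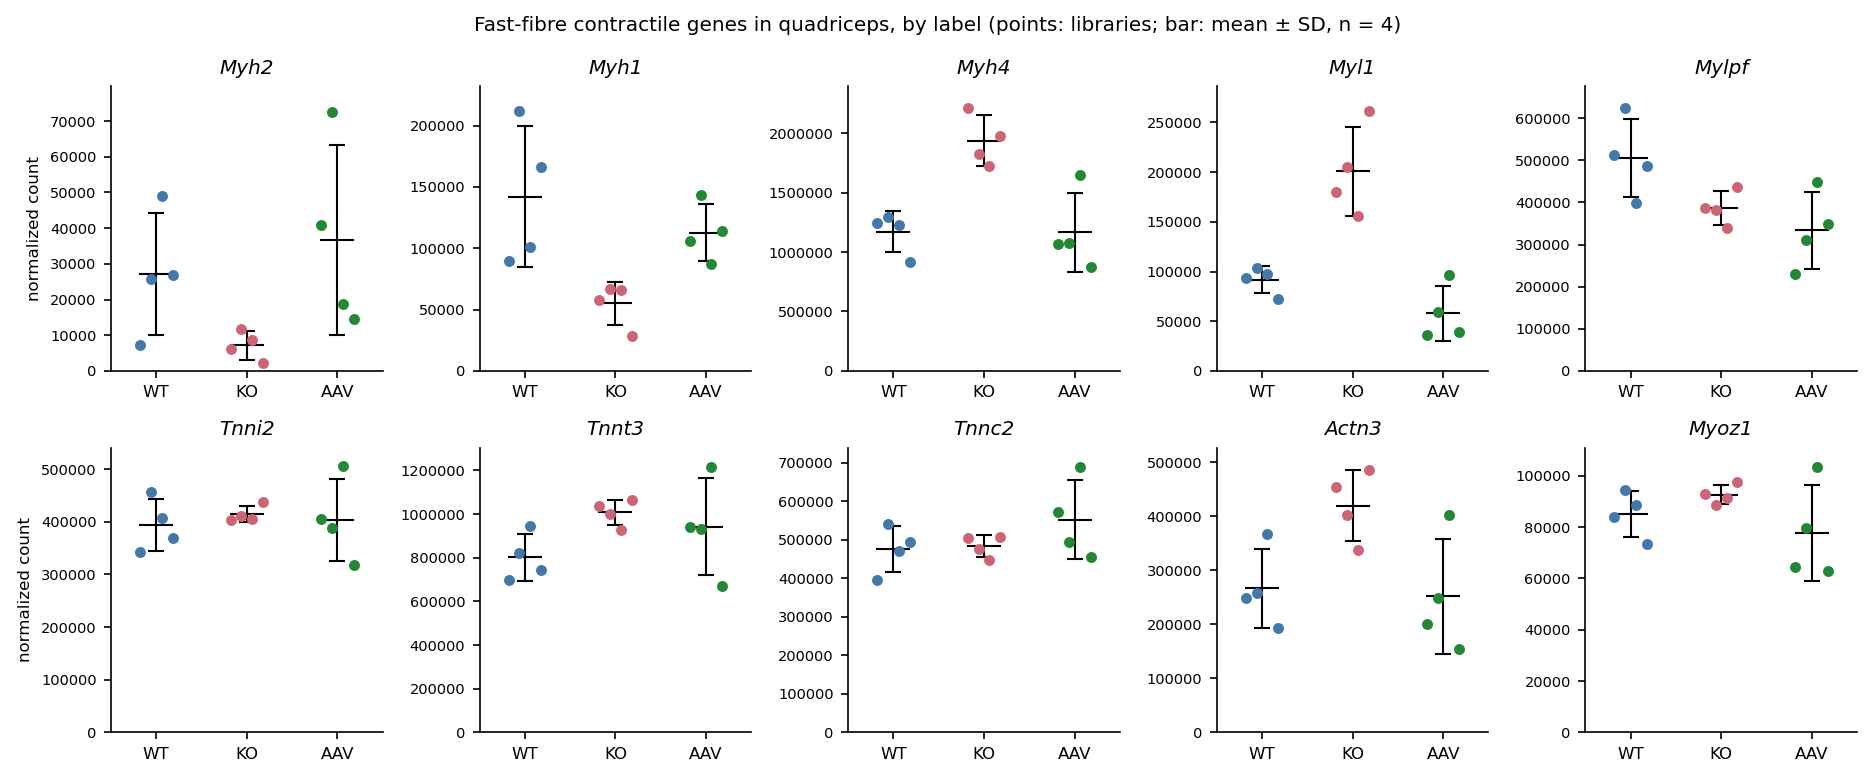
Normalized counts (y axis, from 0, with a scale of its own in each panel) of the 10 members in the libraries labelled WT, KO and AAV (x axis). Points are the 4 libraries of a group and bars the mean ± SD. Myh4 and Myl1 stand higher and Myh1 stands lower in all 4 libraries labelled KO than in the other 8, whereas the troponins, Mylpf and Myoz1 overlap between groups.

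Levels were next set per kilobase of annotated exon, taking the exons of all transcripts of a gene together. That length can exceed the one of the transcripts present, as for Myl1, with 2074 exon bases and 564 coding bases. Levels can thus be compared between genes only roughly, and 74% of the exon bases of Tnnc2 overlap Ube2c. In the libraries labelled WT the order of mean levels was Tnnc2 (594201 ± 74665 per kb, SD, n = 4), Tnnt3 (506233 ± 68119.6), Mylpf (475972 ± 88069.8), Tnni2 (263188 ± 33005), Myh4 (194497 ± 28783), Actn3 (92032 ± 25082), Myoz1 (45069 ± 4721), Myl1 (44297 ± 6454), Myh1 (22363 ± 9062) and Myh2 (3815 ± 2389.6). Tnnc2, Tnnt3 and Mylpf overlapped with their neighbours in that order, as did Myoz1 and Myl1, and the other neighbours did not. In the libraries labelled KO, Tnnt3 (636476 ± 37163 per kb) stood first by mean but overlapped Tnnc2, Myh4 (321777 ± 35349) stood above Tnni2 with overlapping ranges, and Myl1 (96770.5 ± 21768) stood above Myoz1 without overlap. In the libraries labelled AAV the order of means was that of the libraries labelled WT. Together the 10 members took 10.8 to 12.9% of all normalized counts in the libraries labelled WT, 13.3 to 14.7% in KO and 11.1 to 14.6% in AAV.

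The balance of the heavy chains was computed in each animal as the share of each in the sum of Myh2, Myh1 and Myh4 counts per kb. The share of Myh4 was 93.2, 85.3, 89.9 and 83.6% in WT 1 to 4, 97.3, 96.2, 96.1 and 98.5% in KO 1 to 4 and 88.8, 84.6, 94.4 and 87.9% in AAV 1 to 4. The IIb form thus filled nearly the whole sum in the libraries labelled KO and left a larger remainder in the others. The share of Myh1 was 6.32, 13.2, 7.02 and 14.4% in WT 1 to 4, 2.42, 3.33, 3.48 and 1.36% in KO 1 to 4 and 8.32, 10.6, 4.75 and 10.9% in AAV 1 to 4. The share of Myh2 was 0.463, 1.43, 3.04 and 2.07% in WT 1 to 4, 0.226, 0.514, 0.413 and 0.0887% in KO 1 to 4 and 2.86, 4.80, 0.900 and 1.23% in AAV 1 to 4. For both minor forms the libraries labelled KO were low, and only WT 1 reached into the KO range, for Myh2.

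As means ± SD over 4 animals, Myh4 made up 88.0% ± 4.39 of the sum in WT, 97.0% ± 1.16 in KO and 88.9% ± 4.07 in AAV libraries. Myh1 made up 10.2% ± 4.16, 2.65% ± 0.978 and 8.65% ± 2.84, and Myh2 1.75% ± 1.08, 0.311% ± 0.190 and 2.45% ± 1.79. The 3 shares add to the whole, so the 9 tests are not independent. Each used an exact two-sided permutation test over the 70 splits of 8 animals, whose smallest p is 0.0286, with Benjamini-Hochberg adjustment over the 9. For KO against WT, Myh4 gave a difference of 9.03 percentage points (exact p = 0.0286, adjusted p = 0.0514). Myh1 gave a difference of -7.59 percentage points (exact p = 0.0286, adjusted p = 0.0514) and Myh2 a difference of -1.44 percentage points (exact p = 0.0571, adjusted p = 0.0857) in the same comparison. For AAV against KO the p was the smallest possible for all 3. Here Myh4 gave a difference of -8.13 percentage points (exact p = 0.0286, adjusted p = 0.0514). Myh1 gave a difference of 6.00 percentage points (exact p = 0.0286, adjusted p = 0.0514), and Myh2 a difference of 2.14 percentage points (exact p = 0.0286, adjusted p = 0.0514). No share passed 0.05 after adjustment. For AAV against WT the groups overlapped for all 3, with exact p = 0.8 for Myh4, 0.514 for Myh1 and 0.543 for Myh2. Both other comparisons use the same 4 libraries labelled KO, so they are not separate evidence.

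**Figure D2:**
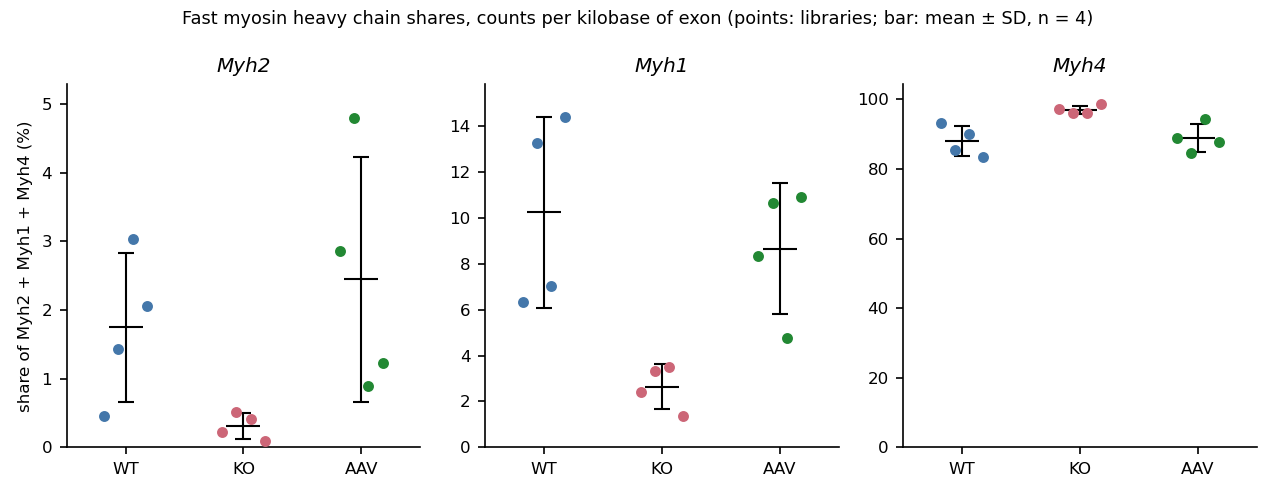
Share of each fast myosin heavy chain in the sum of Myh2, Myh1 and Myh4 normalized counts per kilobase of exon, in percent (y axis, from 0, with a scale of its own in each panel), in the libraries labelled WT, KO and AAV (x axis). Points are libraries and bars the mean ± SD of 4. Myh4 lies at 96.1% or more in each library labelled KO and at 94.4% or less in each of the other 8.

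Reads from the heavy chains are not fully separable. Of the 50-base windows of its annotated transcripts, 30.5% of those of Myh1, 24.6% of those of Myh2 and 18.9% of those of Myh4 also occurred in another gene's transcripts, chiefly in each other and in Myh8. Reads with more than 1 mapping location were left out by the authors, so such stretches may be undercounted. The same measure was 0 for Tnni2, Tnnt3, Mylpf and Myoz1, 11.7% for Myl1 (with the pseudogene Mylf-ps) and 47.9% for Tnnc2, whose exons overlap those of Ube2c on the opposite strand over 592 bases. Myh1 shares 515 exon bases with the antisense transcript Myhas and Myh2 237 with 9430073C21Rik, and as the strand setting of the counting was not given, such reads cannot be told apart. Myhas had at most 3365 normalized counts in any library, against at least 28863 for Myh1.

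In the libraries labelled KO against those labelled WT, 4 of the 10 members passed the test, 2 in each direction. Myl1, the essential light chain, rose 2.16-fold and Myh4, the IIb heavy chain, 1.66-fold. Myh1 (IIx) fell 2.56-fold and Myh2 (IIa) 3.71-fold. The background was wide: of 14859 genes tested, 12.3% were called higher and 15.3% lower, so that 2 of 10 in each direction is near the background and is not in itself a result about the members. Requiring in addition a log2 fold change of at least 1 in size left Myl1, Myh1 and Myh2, against 13.9% of all genes in both directions. By limma on log2(value + 1) with Benjamini-Hochberg adjustment over all genes, Myl1 had a log2 fold change of 1.11 (SE 0.20, adjusted p = 0.00514); Myh4 a log2 fold change of 0.73 (SE 0.24, adjusted p = 0.0487); Myh1 a log2 fold change of -1.36 (SE 0.34, adjusted p = 0.0182); and Myh2 a log2 fold change of -1.89 (SE 0.62, adjusted p = 0.045). The groups did not overlap for Myl1, Myh4 and Myh1, whereas WT 1 lay within the KO range for Myh2. Actn3 missed the threshold by limma (log2 fold change 0.68, SE 0.23, adjusted p = 0.055), but was called higher by edgeR, by DESeq2, under scaling by total reads and under a stricter filter on low values. The other 5 members had log2 fold changes between -0.38 (Mylpf) and 0.34 (Tnnt3) with limma adjusted p of 0.19 or more. The median over the 10 members was 0.10 (0.054 to 0.17 with 1 library left out), beside 0.024 over all genes.

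Of these calls, Myl1 alone held whichever library was left out. When 1 library was left out at a time, between 1 and 4 members were called: Myh1 was lost without WT 4 (limma adjusted p = 0.0544), Myh2 without WT 2, WT 3, WT 4, KO 1, KO 3 or KO 4 (adjusted p over all 8 such fits 0.0184 to 0.106), and Myh4 without any library except WT 3 (0.0292 to 0.128). Without WT 2 and WT 3, the library whose Gaa went against its group and the one nearest to KO, a choice made after the data were seen, 4 members were called: Myl1, Myh4 and Actn3 higher and Myh1 lower, and Myh2 was not called (limma adjusted p = 0.184).

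In the libraries labelled AAV against those labelled KO, the same light chain and the IIa and IIx heavy chains passed. Myl1 fell 3.68-fold, Myh2 rose 4.97-fold and Myh1 rose 2.12-fold, each with no overlap between the groups. Thus 2 of 10 members were called higher and 1 lower, against 12.8% and 13.4% of the 14894 genes tested, and all 3 also had a log2 fold change of at least 1 in size, against 8.98% of all genes. By limma, Myl1 had a log2 fold change of -1.88 (SE 0.31, adjusted p = 0.00514); Myh2 a log2 fold change of 2.31 (SE 0.59, adjusted p = 0.0207); and Myh1 a log2 fold change of 1.09 (SE 0.28, adjusted p = 0.0218). Myh4 had a log2 fold change of -0.77 (SE 0.36, adjusted p = 0.132) although its groups did not overlap, and Actn3 a log2 fold change of -0.81 (SE 0.31, adjusted p = 0.0773); neither was called by limma, whereas edgeR called Myh4 lower and DESeq2 called both lower. The log2 fold changes of the other 5 lay between -0.28 (Myoz1) and 0.18 (Tnnc2), with limma adjusted p of 0.277 or more. The median over the members was -0.19 (-0.33 to -0.084 with 1 library left out), beside 0.041 over all genes. The count depended on AAV 3: without it 5 members were called, Myh4 (limma adjusted p = 0.0329) and Actn3 (0.0098) among them. Without AAV 1 only Myl1 was called, and without KO 1 Myh2 was lost (limma adjusted p = 0.0532), while without AAV 4, whose Gaa went against its group, the 3 calls were the same.

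Between the libraries labelled AAV and WT none of the 10 members was called by limma, edgeR or DESeq2, and 1, Myl1, had an unadjusted p under 0.05 by limma (log2 fold change -0.77, SE 0.31, adjusted p = 0.236). The background was low too, with 0.951% of 14939 genes called higher and 0.341% lower, and 0.951% called with the fold threshold. Mylpf had the next lowest value (log2 fold change -0.62, SE 0.29, adjusted p = 0.297, limma). The 3 heavy chains had log2 fold changes of 0.42 ± 0.62 (SE) for Myh2, -0.27 ± 0.31 for Myh1 and -0.032 ± 0.34 for Myh4. With standard errors of this size, a missed threshold does not show that the levels were alike. The sign of the Myh4 and Actn3 changes turned under scaling by total reads.

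**Figure D3:**
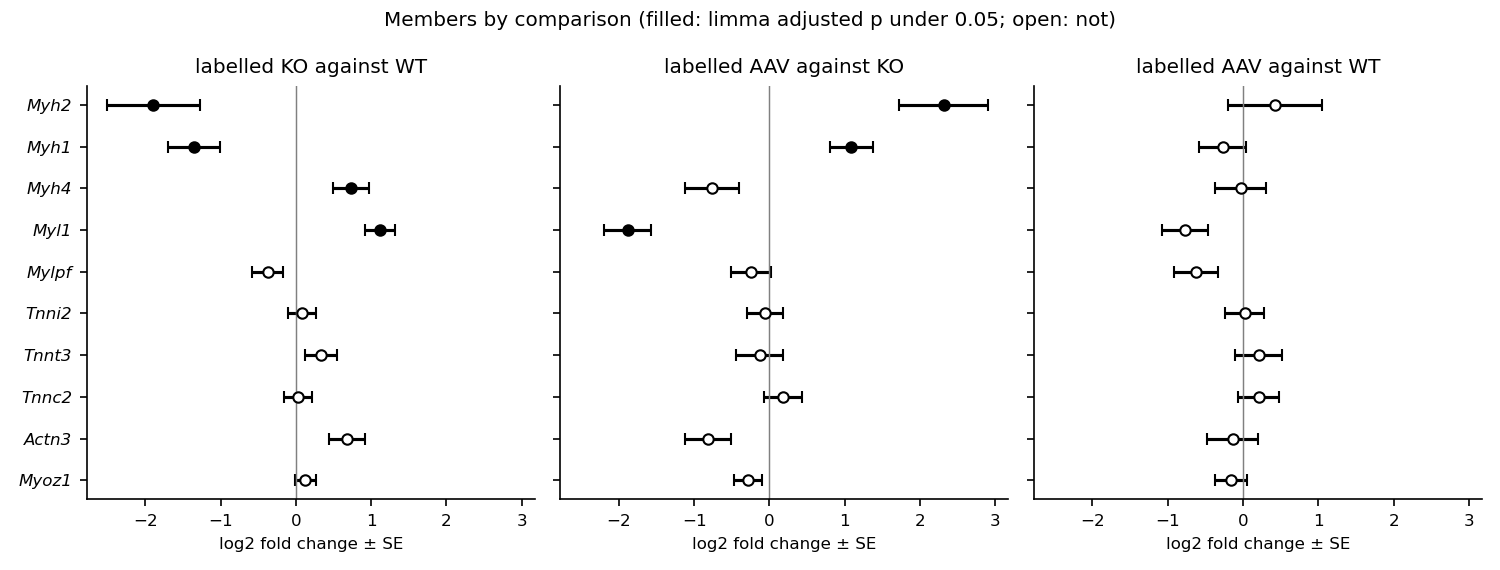
Log2 fold changes ± SE (x axis) of the 10 members (y axis) in each of the 3 comparisons between labels, by limma on log2(value + 1). Filled points had an adjusted p under 0.05. Myl1 and Myh4 are filled on the positive side and Myh1 and Myh2 on the negative side for KO against WT, Myl1, Myh1 and Myh2 are filled with the opposite signs for AAV against KO, and no point is filled for AAV against WT.

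The balance of both fast light chains set the libraries labelled KO apart. Per kb of exon, the ratio of Myl1 to Mylpf was 0.0767 to 0.125 in the libraries labelled WT, 0.235 to 0.306 in KO and 0.0580 to 0.111 in AAV. Every KO library had a ratio above that of each other library. The ratio was chosen after the values were seen and was not tested. The ratio of Myh4 to Myh1 ranged over 5.81 to 14.8, 27.6 to 72.4 and 7.95 to 19.9 in the same groups, again without overlap for KO. Other ratios overlapped. That of Myh1 to Myh2 ranged over 2.31 to 13.6, 6.48 to 15.4 and 2.22 to 8.83. That of Actn3 to Myoz1 ranged over 1.71 to 2.70, 2.40 to 3.25 and 1.60 to 2.53.

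Most of the 8 other fast-fibre genes were not called. Of these, 2 rose in KO against WT by limma, where 12.3% of all genes were called higher: Mylk2, the kinase of the regulatory light chain (log2 fold change 0.97, SE 0.19, adjusted p = 0.00694), and Mybpc2, fast myosin-binding protein C (log2 fold change 0.59, SE 0.19, adjusted p = 0.0454). The fast calcium pump Atp2a1 (0.14), calsequestrin Casq1 (0.08) and parvalbumin Pvalb (-0.15) were not called. Myoz3, another calsarcin, fell in AAV against KO (log2 fold change -0.99, SE 0.27, adjusted p = 0.027, limma), 1 of 8 beside 13.4% of all genes called lower, and none of the 8 was called in AAV against WT by limma, edgeR or DESeq2 (1 had an unadjusted limma p under 0.05). There, Myoz3 was called lower in a single limma fit of all 12 libraries and with the replicate number as a block, and Mylk2 higher without WT 3 and AAV 4. In KO against WT, Mylk2 was called whichever library was left out, whereas Mybpc2 was lost without any 1 library except WT 3. In AAV against KO, Myoz3 was lost without KO 1, KO 2, KO 4 or AAV 1 and with the block, and without AAV 3 it was called with Mybpc2 and Mylk2. The list's median was 0.11 for KO against WT (0.054 to 0.18 with 1 library left out, the lowest without WT 1 and the highest without WT 3), beside 0.024 over all genes. For AAV against KO it was -0.33 (-0.49 to -0.16, the extremes without AAV 3 and without AAV 4), beside 0.041.

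The slow counterparts were lower together in the libraries labelled KO. All 13 genes fell against WT by limma, with a median log2 fold change of -2.42, beside 0.024 over all genes, where 15.3% of genes were called lower. Those with the lowest adjusted p were slow troponin C Tnnc1 (log2 fold change -3.48, SE 0.33, adjusted p = 0.000296), slow troponin I Tnni1 (log2 fold change -5.66, SE 0.57, adjusted p = 0.000415), slow troponin T Tnnt1 (log2 fold change -3.67, SE 0.42, adjusted p = 0.00073) and the slow calcium pump Atp2a2 (log2 fold change -0.92, SE 0.13, adjusted p = 0.00213). Tnni1 had 625, 1070.5, 165 and 1309 normalized counts in WT 1 to 4, 12.6, 15.4, 6.53 and 12.4 in KO 1 to 4 and 859, 1856, 437 and 704 in AAV 1 to 4. The fast member of each troponin pair was not called by limma in any comparison, although DESeq2 called Tnnt3 higher in KO against WT. Leaving out 1 library at a time left 6 to 13 of the 13 called (6 without WT 2 and 6 without WT 4, 7 without KO 1), none of them higher. Without WT 2 and WT 3, 7 were called. A single limma fit of all 12 libraries called 10, and limma with the replicate number as a block called 12. The median ran from -3.16 to -2.25 with 1 library left out and was -1.65 without WT 2 and WT 3.

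Against KO, 11 of the 13 slow genes rose in the libraries labelled AAV by limma (median log2 fold change 2.85, beside 0.041 over all genes, where 12.8% of genes were called higher). The lowest adjusted p were those of Tnni1 (log2 fold change 6.10, SE 0.41, adjusted p = 4.77e-05), Tnnc1 (log2 fold change 5.23, SE 0.61, adjusted p = 0.00115), Tnnt1 (log2 fold change 4.66, SE 0.58, adjusted p = 0.00161) and Casq2, cardiac and slow calsequestrin (log2 fold change 1.93, SE 0.25, adjusted p = 0.00188). Atp2a2 (log2 fold change 0.78, SE 0.26, adjusted p = 0.0502, limma) and Mybpc1 (log2 fold change 0.59, SE 0.40, adjusted p = 0.29, limma) were not called. The slow heavy chain Myh7, named after its values were seen, had 15.4, 106, 248 and 74.1 normalized counts in WT 1 to 4, 14.5, 11.1, 13.1 and 14.1 in KO 1 to 4 and 1833, 4306, 1095 and 41.3 in AAV 1 to 4. It was thus nearly absent from the libraries labelled KO and highest in AAV 1 to 3, and lay below each fast heavy chain in every library. Leaving out 1 library at a time left 9 to 13 called higher. In AAV against WT none of the 13 was called by limma or edgeR, 3 were by DESeq2 and 3 had an unadjusted limma p under 0.05. The median was 0.48, beside -0.031 over all genes. With 1 library left out it ran from 0.057 to 0.98, the lowest without AAV 2 and the highest without AAV 3. Myh7 was called higher by limma without AAV 4. Without WT 3 and AAV 4, a choice made after the data were seen, 4 were called higher by limma. The share of all genes called in that fit is not given here. The same fit called Mylk2 higher, and of the genes beside the fast heavy chains 1 higher and 2 lower. Calls in it were thus not particular to the slow genes.

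Of the neighbours of the fast heavy chains on chromosome 11, embryonic Myh3 and neonatal Myh8 were lower in KO against WT and higher in AAV against KO. By limma, Myh3 had a log2 fold change of -3.03 (SE 0.55, adjusted p = 0.00513) and then a log2 fold change of 2.18 (SE 0.60, adjusted p = 0.0266), and Myh8 a log2 fold change of -2.17 (SE 0.52, adjusted p = 0.0144) and then a log2 fold change of 1.58 (SE 0.31, adjusted p = 0.00878). The long noncoding RNA 2310065F04Rik, transcribed from the opposite strand between Myh3 and Myh2 (chr11:67112461-67120080), had 548, 517, 7160.2 and 422 normalized counts in WT 1 to 4, 6998, 5059, 4506 and 5737 in KO 1 to 4 and 1393, 3046, 4504 and 416 in AAV 1 to 4. It was high in the libraries labelled KO and in WT 3, and low in WT 1, 2 and 4 and in AAV 4 (KO against WT, log2 fold change 2.51, SE 0.76, adjusted p = 0.0351, limma). Both myosin calls against WT held whichever library was left out, while 2310065F04Rik was lost without any 1 library except WT 3 and was not called by edgeR or DESeq2. In AAV against KO, Myh3 was lost without KO 2, KO 3, KO 4 or AAV 1, and Myh8 in a single fit of all 12 libraries. Extraocular Myh13 was not called.

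Regulators of the fast programme split. Of 9, 3 rose and 3 fell in KO against WT by limma, where 12.3% of all genes were called higher and 15.3% lower. Tbx15, a factor of glycolytic fibres, rose (log2 fold change 0.63, SE 0.15, adjusted p = 0.0161). Nfix, a switch from embryonic to fetal muscle genes, fell (log2 fold change -0.85, SE 0.15, adjusted p = 0.00427), and so did Mafa (log2 fold change -2.53, SE 0.55, adjusted p = 0.0102), a large Maf factor known to activate Myh4. Six4 (log2 fold change 0.81, SE 0.23, adjusted p = 0.0294) and Maf (log2 fold change 0.45, SE 0.14, adjusted p = 0.0418) also rose, and Myod1 (log2 fold change -0.58, SE 0.16, adjusted p = 0.0248) fell, all 3 named after their values were seen. With the replicate number as a block, Six4 and Maf were not called. Tbx15, Nfix and Mafa were called whichever library was left out, whereas the number called higher went from 3 to 1 without WT 1, WT 2, KO 1, KO 2 or KO 4 and the number called lower from 3 to 2 in 5 of the 8 fits. Between AAV and KO, where 12.8% of all genes were called higher and 13.4% lower, Tbx15 (log2 fold change -0.77, SE 0.18, adjusted p = 0.0156), Six4 (log2 fold change -0.87, SE 0.21, adjusted p = 0.0166) and Sox6, a repressor of slow genes (log2 fold change -1.10, SE 0.27, adjusted p = 0.0174), fell by limma, and Nfix rose (log2 fold change 0.64, SE 0.20, adjusted p = 0.0391). Nfix was lost in 6 of the 8 fits with 1 library left out (all but those without AAV 2 or AAV 3) and with the replicate number as a block. Sox6 was lost without KO 1, KO 4 or AAV 1 and Six4 without KO 1. Mafa had 434, 1285, 921 and 585 normalized counts in WT 1 to 4, 47.3, 171, 95.7 and 339.5 in KO 1 to 4 and 239.8, 137, 207 and 62.4 in AAV 1 to 4. Its values in the libraries labelled AAV lay below all of those labelled WT, and it was the single member of its list called in AAV against WT, where 0.341% of all genes were called lower (log2 fold change -2.36, SE 0.45, adjusted p = 0.0467, limma), a call lost without any 1 library except WT 3. Of 9 regulators of the slow programme, Vgll2, a cofactor of TEAD factors, fell in KO against WT (log2 fold change -2.36, SE 0.25, adjusted p = 0.000564, limma) and the other 8 were not called. In AAV against KO, Vgll2 (log2 fold change 1.58, SE 0.35, adjusted p = 0.0135) and Esrrb (log2 fold change 1.35, SE 0.45, adjusted p = 0.04996) rose and Tead1 (log2 fold change -0.54, SE 0.17, adjusted p = 0.0407) fell by limma, and Vgll2 alone was called whichever library was left out.

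**Figure D4:**
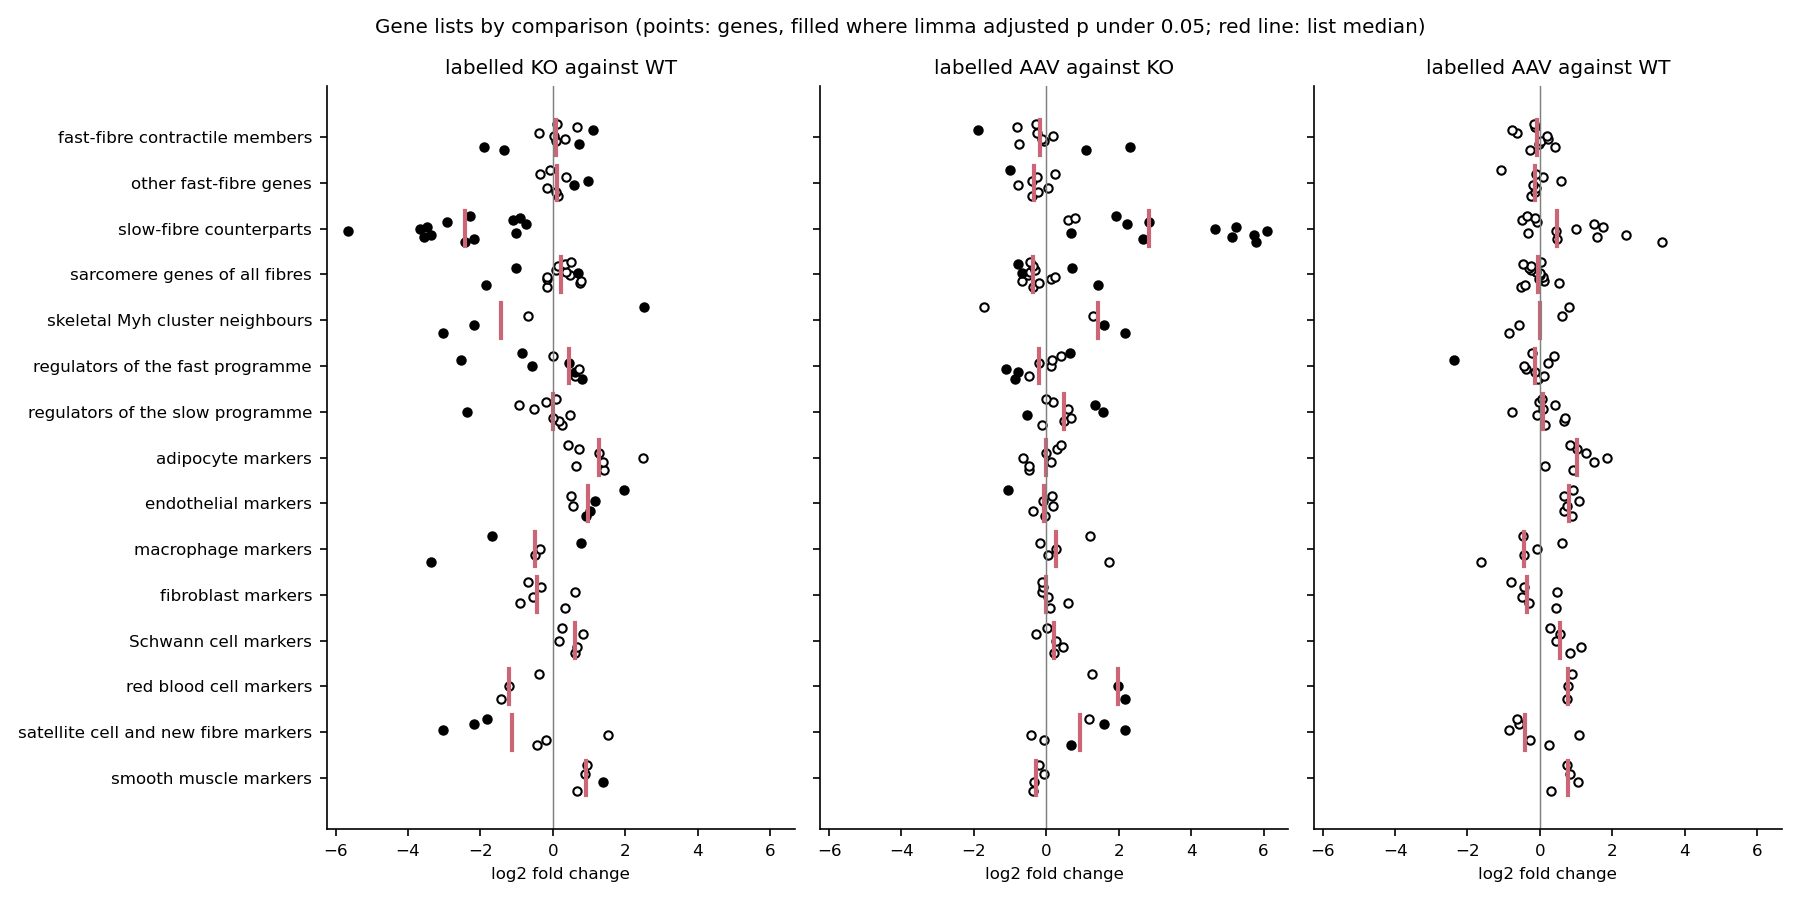
Log2 fold changes (x axis) of the genes of each list (y axis) in the 3 comparisons between labels. Points are genes, filled where the limma adjusted p was under 0.05, and the red line is the list's median. The slow-fibre counterparts lie to the left of 0 for KO against WT and to the right for AAV against KO, while the members spread to both sides.

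Markers of other cells in the muscle were read alongside. In KO against WT, where 12.3% of all genes were called higher and 15.3% lower, 4 of 6 endothelial markers and 1 of 4 smooth muscle markers were called higher by limma, 1 of 5 macrophage markers was higher and 2 lower, 3 of 6 satellite cell and new fibre markers were lower, and none of 7 adipocyte, 6 fibroblast, 5 Schwann cell and 3 red blood cell markers was called. The 3 lower genes of the satellite cell and new fibre list were Myh3 and Myh8, given above, and Myog (log2 fold change -1.82, SE 0.56, adjusted p = 0.0378, limma). Its satellite cell markers Pax7 (-0.43), Myf5 (-0.19) and Calcr were not called, and Calcr had higher values in each library labelled KO than in any labelled WT (log2 fold change 1.51, SE 0.61, adjusted p = 0.0871, limma). At an unadjusted limma p under 0.05 there were 1 adipocyte, 2 fibroblast, 1 Schwann cell and 1 red blood cell marker. EdgeR called 1 adipocyte and 1 fibroblast marker, and DESeq2 called 1 adipocyte and 2 fibroblast markers. With 1 library left out, 2 to 6 endothelial and 0 to 3 smooth muscle markers were called higher, and 2 to 3 macrophage and 2 to 4 satellite cell and new fibre markers lower. Of the lists, 1 macrophage and 2 red blood cell markers were not in the tables. Summed endothelial markers were 1909.6 to 5019.9 in the libraries labelled WT, 4834 to 5878 in those labelled KO and 3657 to 6109 in those labelled AAV, and summed smooth muscle markers 1462 to 4522 in the libraries labelled WT, 5090.4 to 6649.7 in those labelled KO and 3419 to 5894 in those labelled AAV. Summed macrophage markers were 703 to 2037 in the libraries labelled WT, 449 to 855 in those labelled KO and 524 to 2075 in those labelled AAV, and summed satellite cell and new fibre markers 777 to 4048 in the libraries labelled WT, 464 to 751 in those labelled KO and 1000.3 to 3164 in those labelled AAV. For AAV against KO, where 12.8% of all genes were called higher and 13.4% lower, 1 endothelial marker was lower, 3 of 6 satellite cell and new fibre markers (Myh3, Myh8 and Pax7) and 2 of 3 red blood cell markers were higher, and the others were not called. Both red blood cell calls were lost without KO 1, KO 2, AAV 1 or AAV 2, and 1 of the satellite cell and new fibre markers, Myh8, was still called without KO 2, KO 4 or AAV 1. No marker that was measured was at 0 in any library, and the part of these cells in the results for the members was not tested.

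Across the 12 libraries, the genes outside the list whose log2 values followed a heavy chain most closely, among 11061 genes, were as follows. Myh2 was followed by Ldhb, the heart form of lactate dehydrogenase (Pearson's r = 0.98), Fndc5 (0.97) and Bdh1 (0.97). Myh1 was followed by Mppe1 (0.96), the alpha-actinin gene Actn2 (0.95) and Smtnl1 (0.95). Myh4 was followed by Mybpc2, Slc16a10 and Klhl21 (0.97, 0.97 and 0.96). These correlations describe normalized values of libraries that fall into labelled groups. Each library's size factor is common to all its genes, and no test was made of the correlations.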

How the data were processed

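RNA-Seq of quadriceps from 12 mice was analysed, 4 libraries per label. The deposited values are a signal that the authors made by trimming reads (Trim Galore 0.4.1, minimum length 20 nt), mapping to GRCm38 with STAR, keeping uniquely mapped reads, counting per gene with HTSeq 0.6.1, dropping genes that never reached 10 reads, and dividing by a DESeq2 1.16.1 size factor per library. Their 2 deposited tables also hold the authors' own log2 fold changes with errors, Wald scores, p-values and adjusted p-values, which were not used. No per-sample column was set aside (0 columns). Values of the libraries labelled KO were identical in both tables. Whole reads could be recovered in all 12 libraries, within 0.01 of a whole number. For the largest values a wider tolerance in proportion to the count was allowed. In AAV 2, 1 read was worth 1.01 normalized counts, so near to 1 that its step is harder to tell from rounding, and the edgeR and DESeq2 values rest on that step.

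Because the values are normalized, the main test was limma 3.58.1 with a mean-variance trend on log2(value + 1). A gene was tested if it reached 10 in any library of the pair of groups, p-values were adjusted by Benjamini-Hochberg over all genes tested, and the threshold was 0.05. Alternatives were edgeR 4.0.16 and DESeq2 1.42.0 on recovered reads, other scalings and filters, a pseudocount of 0.1, a single fit of all libraries, the replicate number as a block, and libraries left out. The scripts were tested on simulated data. Coordinates and exon lengths came from GENCODE M21 (15186 of 15344 identifiers), and promoters from RefSeq.

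The members and the 15 gene lists were chosen with earlier results of these data known. A further regulator of the fast programme is not reported here. By plan the text names the members, Gaa, up to 4 genes per list with the lowest adjusted p in a comparison, and genes of small lists that did not pass. For each heavy chain it names the 3 genes most like it in pattern with a mean of at least 50. Further genes, Six4, Maf, Myod1 and Myh7 among them, were named after their values were seen. Each library was taken as 1 animal, so p-values measure the spread between animals. Computation used R 4.3.3, Python 3.11.15, pandas 2.3.3, numpy 2.4.6 and matplotlib 3.10.9.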

Additional observations from a re-analysis of the deposited data

How the results depend on the processing

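The count of members called in KO against WT was 4, with 5 by edgeR, 6 by DESeq2, and 3 without a filter on low values; it ranged from 1 to 4 when 1 library was left out. In AAV against KO it was 3, with 4 by edgeR and 5 by DESeq2, and 1 to 5 when 1 library was left out. Scaling by total reads moved the median of all genes to 0.20 in AAV against KO and to 0.12 in AAV against WT, and gave log2 fold changes of 0.11 for Tnni2 and 0.038 for Tnnt3 in the former and 0.12 for Myh4 and 0.016 for Actn3 in the latter, each with the opposite sign to before. In AAV against WT, Myh4 also turned to 0.018 by edgeR. There, Myh4 and Actn3 turned to 0.15 and 0.063 without WT 2 and AAV 4, and to 0.12 and 0.23 without WT 3 and AAV 4, an alternative chosen after the data were seen. The cause was not tested. None of these reversals involved a member called in the same comparison.

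With 1 library left out, log2 fold changes that changed sign ranged from -0.052 to 0.097 for Tnnc2 in KO against WT, from -0.17 to 0.052 for Tnni2 and -0.26 to 0.024 for Tnnt3 in AAV against KO, and from -0.11 to 0.80 for Myh2, -0.21 to 0.094 for Myh4, -0.090 to 0.13 for Tnni2 and -0.39 to 0.067 for Actn3 in AAV against WT. Differences in share, in percentage points, ranged in KO against WT from -1.87 to -1.01 for Myh2, -8.89 to -6.21 for Myh1 and 7.54 to 10.8 for Myh4. For AAV against KO they ranged from 1.35 to 2.65, 5.25 to 7.30 and -9.95 to -6.69, and in AAV against WT from -0.0858 to 1.21 for Myh2 and -0.924 to 2.63 for Myh4. Leaving out any 1 library labelled KO raised the exact p above 0.05 for the 3 shares in AAV against KO and for Myh1 and Myh4 in KO against WT. In each of these the groups still did not overlap. With 3 against 4 libraries the smallest exact p is 0.0286 and p moves in coarse steps. This crossing therefore cannot show that a share depended on 1 library. Dividing by coding length or not at all moved no share across 0.05.

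The replicate numbers share only a number: deviations of same-numbered libraries from their group means had mean correlations of -0.043, -0.10 and 0.17 in KO against WT, AAV against KO and AAV against WT. With the replicate number as a block, 3, 3 and 0 members were called in these comparisons, Myh4 being lost in KO against WT (limma adjusted p = 0.13), and the calls over all genes went from 4097 to 3062 and from 3910 to 2179 in the first 2. An exact paired permutation test of the shares cannot go below p = 0.125. Over the 10 members, 485 of the other values kept their sign and side of the threshold, 21 lost it, 12 gained it and 22 changed sign. Precision was limited by 4 animals per group, and counting error was small for the members at these depths.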

Other observations

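Of the 14 sarcomere genes listed as common to fast and slow fibres, 1 was called higher and 2 lower in KO against WT. This is not above the 12.3% and 15.3% of all genes called. Limma with Benjamini-Hochberg adjustment called the alpha-actinin gene Actn2 lower (log2 fold change -1.84, SE 0.27, adjusted p = 0.00208). Actn2 had 23425, 38508, 29815 and 28852 normalized counts in WT 1 to 4 and 9443, 11252, 9490 and 4651 in KO 1 to 4. Over the 12 libraries its values followed those of Myh1 (Pearson's r = 0.95). Limma also called desmin, Des, the intermediate filament that links Z-discs, lower (log2 fold change -1.03, SE 0.21, adjusted p = 0.00874). The M-band gene Myom1 was called higher (log2 fold change 0.69, SE 0.17, adjusted p = 0.0152). Between AAV and KO all 3 were called with the opposite sign, against 12.8% of all genes called higher and 13.4% lower, and Cmya5 was called lower (log2 fold change -0.79, SE 0.24, adjusted p = 0.0356). Without KO 1, KO 2, KO 4 or AAV 1, and with the replicate number as a block, Actn2 alone was called in that comparison. In KO against WT, 9 genes were called without WT 3, and Myom1 was lost without KO 1. None of the 14 was called in AAV against WT by limma, edgeR or DESeq2, and 0 had an unadjusted limma p under 0.05.

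The macrophage marker Cd68 differed between libraries of one label. It had 560.1, 590, 69.8 and 568 normalized counts in WT 1 to 4, 36.7, 28.2, 33.7 and 30.9 in KO 1 to 4 and 127, 74.5, 35.4 and 415 in AAV 1 to 4. WT 1, 2 and 4 and AAV 4 were the highest and WT 3 was near the libraries labelled KO (KO against WT, log2 fold change -3.35, SE 0.60, adjusted p = 0.00513, limma). The other macrophage markers did not all run the same way. C1qa was called lower (log2 fold change -1.67, SE 0.39, adjusted p = 0.0133) and Cd163 higher (log2 fold change 0.79, SE 0.24, adjusted p = 0.0344) by limma, while Csf1r (-0.49) and Mrc1 (-0.36) were not called.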
